A study of Homo sapiens with 12 samples.

Results

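The genes described here were 10 genes of the endoplasmic reticulum (ER) unfolded protein response: HSPA5, HSP90B1, DNAJB9, DNAJC3, DNAJB11, SDF2L1, CALR, PDIA4, HERPUD1 and XBP1. They were taken by gene symbol from a deposited table of 17303 genes, and all 10 passed the expression filter that left 12868 genes for testing. Gene expression was measured by RNA-seq of polyadenylated RNA in 12 libraries of SNU638, a cell line established from human gastric cancer. The cells had been infected with lentivirus and kept under puromycin, so all 4 lines, the control included, carry an integrated hairpin construct and a resistance marker. 3 lines carried a short hairpin RNA against SKA2 (hairpin 1, hairpin 2 or hairpin 3, marked as SKA2 knockdown), and 1 line carried a control hairpin with no other genotype change. Each line gave 3 libraries. The labels do not give the hairpin sequences or the promoter that drives them. They also do not say how many clones a line holds, or whether its 3 libraries came from separate cultures. The p-values therefore cover the variation among these libraries alone, possibly only technical, and a hairpin and its line cannot be told apart.

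The unfolded protein response is the program by which a cell adjusts the folding capacity of its ER. Its sensors sit in the ER membrane: ATF6 is cut to release a transcription factor, IRE1 splices the XBP1 mRNA so that it encodes an active factor, and PERK phosphorylates eIF2 alpha, which favours translation of ATF4. The cut form of ATF6 and the spliced form of XBP1 raise ER chaperones and degradation factors through ER stress response elements, while ATF4 raises amino acid synthesis and transport genes through C/EBP-ATF response elements. ATF4 is also reached by other eIF2 alpha kinases that do not sense the ER. HSPA5 encodes BiP, the Hsp70 chaperone of the ER, and DNAJB9 (ERdj4), DNAJC3 (p58IPK) and DNAJB11 (ERdj3) encode J-domain partners of BiP. SDF2L1 forms a complex with DNAJB11. HSP90B1 encodes GRP94, the Hsp90 of the ER, CALR encodes calreticulin, a calcium-binding lectin chaperone, and PDIA4 encodes a disulfide isomerase. HERPUD1 encodes a membrane scaffold of ER-associated degradation, and XBP1 encodes the transcription factor itself. In mouse cells DNAJB9, DNAJC3 and DNAJB11 depend on XBP1, and HERPUD1 is known to respond to the ER stress elements and to ATF4.

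The promoters were searched for exact matches to the letters of these elements next to each start. RefSeq promoters (GRCh38.p14, 250 bases before to 50 after each start) matched 10 of 10 genes, with 12 windows in all, because PDIA4 and XBP1 have 2 starts each. The ER stress response element was searched on both strands as CCAAT and CCACG with any 9 bases between them, which occurred in 0.0769% of 35114 windows, and its second form as ATTGG and CCACG with any 1 base between them, which occurred in 0.0541% of windows. The windows of HERPUD1, HSPA5 and XBP1 are shown because their levels moved most alike over the libraries. Capitals mark the fixed letters of a match.
HERPUD1 (chr16:56931892-56932191, plus strand): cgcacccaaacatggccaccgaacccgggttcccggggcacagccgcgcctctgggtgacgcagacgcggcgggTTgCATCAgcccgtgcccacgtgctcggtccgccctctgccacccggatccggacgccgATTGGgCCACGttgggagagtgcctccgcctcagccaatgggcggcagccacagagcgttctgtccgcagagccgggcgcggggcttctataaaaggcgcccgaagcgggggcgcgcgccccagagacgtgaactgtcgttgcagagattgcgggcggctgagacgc
HSPA5 (chr9:125241294-125241593, minus strand): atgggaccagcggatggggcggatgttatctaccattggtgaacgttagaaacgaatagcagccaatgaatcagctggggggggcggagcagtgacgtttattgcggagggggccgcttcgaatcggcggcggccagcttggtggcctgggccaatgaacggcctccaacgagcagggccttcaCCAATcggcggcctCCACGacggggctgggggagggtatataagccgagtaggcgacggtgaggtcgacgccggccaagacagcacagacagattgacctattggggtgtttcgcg
XBP1 (chr22:28800520-28800819, minus strand, first start): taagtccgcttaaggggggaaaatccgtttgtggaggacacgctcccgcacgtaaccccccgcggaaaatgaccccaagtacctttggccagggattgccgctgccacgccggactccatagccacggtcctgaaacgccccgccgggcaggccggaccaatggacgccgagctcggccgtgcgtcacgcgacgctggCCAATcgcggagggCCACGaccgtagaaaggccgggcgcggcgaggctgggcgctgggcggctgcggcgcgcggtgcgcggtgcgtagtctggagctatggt

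HSPA5 had an exact match to the ER stress element from -66 to -48, and XBP1 had a match from -52 to -34. Both were read forward and counted from the start of transcription. HERPUD1 had the second form from -117 to -107, read forward, and a C/EBP-ATF element from -176 to -169 on the reverse strand. The letters searched for that element were TGATGNAA, which occurred in 3.62% of windows. HERPUD1 was the only member with a match to it, against 9 of 28 genes of the PERK-ATF4 list described below, none of which had a match to either ER stress element. The 2 matches do not overlap. The remaining matches are shown to compare their orientation.
HSP90B1, from -194 to -176, forward: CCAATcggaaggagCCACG
HSP90B1, from -89 to -71, reverse: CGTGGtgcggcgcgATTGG
CALR, from -225 to -207, reverse: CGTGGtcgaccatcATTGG
SDF2L1, from -188 to -178, reverse, second form: CGTGGaCCAAT
DNAJB9, DNAJC3, DNAJB11 and PDIA4 had none of these letters in their windows, and no member held the XBP1-type element TGACGTGG, which occurred in 0.729% of windows. A match describes letters only, and its absence says nothing about an inexact element within these windows or a factor outside them.

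**Figure D1:**
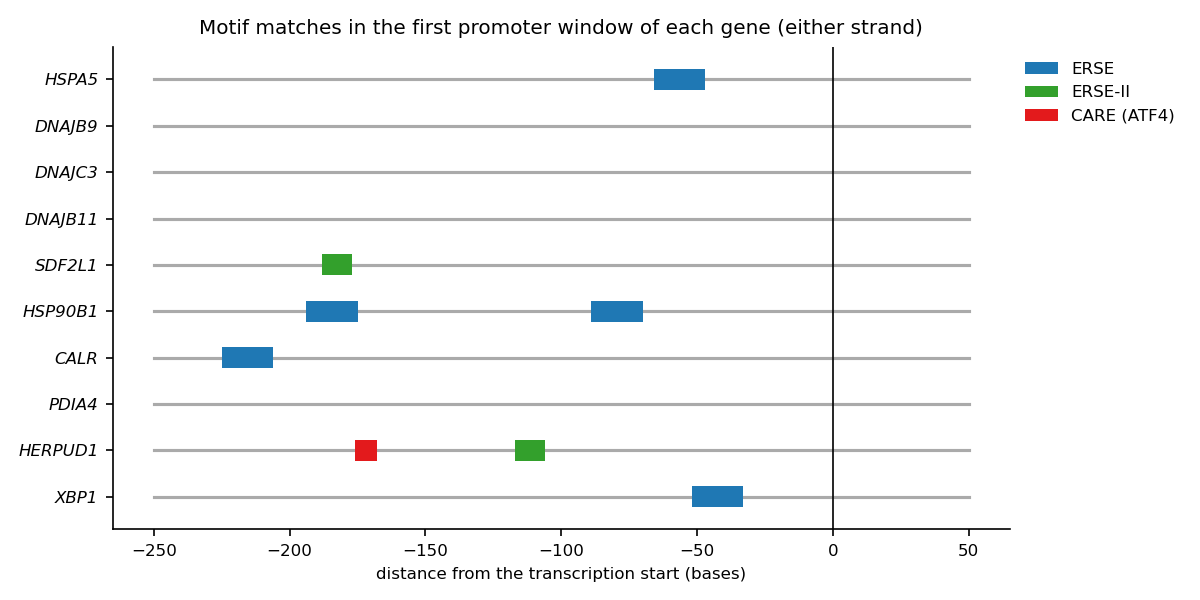
Matches to the ER stress elements (ERSE, ERSE-II) and to the C/EBP-ATF element (CARE) in the first promoter window of each of the 10 genes, as distance from the transcription start in bases. 6 genes carry an exact match to an ER stress element, and HERPUD1 also carries a match to the C/EBP-ATF element.

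SKA2, the gene targeted by the hairpins, which encodes a kinetochore subunit, measured between 22.3 and 28.0 CPM (reads per library total, with TMM factors applied) in the 9 knockdown libraries, against 117 to 126 CPM in the control libraries. Total counts ran between 14693343 and 16739155 per library. The first control library and the first hairpin 3 library stood apart from their partners. Their counts differed from those of their partners by a chi-square per gene between 24.7 and 50.9, against 1.68 to 6.62 for all other pairs of libraries within a line. The level of a transcript also moved with its length by a different amount in each line. This slope, in log2 per doubling of length, lay between 0.0833 and 0.108 in hairpin 1 libraries, between 0.152 and 0.206 in hairpin 2 libraries, between -0.171 and 0.0924 in hairpin 3 libraries and between -0.324 and -0.0561 in control libraries. 2 alternatives that remove this trend, a length offset and a length covariate, were fitted, and where they ended, added or turned a call of 1 of the 10 genes with a hairpin, this is given with that gene. All 7 epithelial markers were measured, with a summed level between 2266 and 2367 CPM in hairpin 1 libraries, 1025 and 1055 in hairpin 2, 2029 and 2694 in hairpin 3, and 2512 and 3391 in control libraries. Of the markers of other cells that were measured, 4 of 5 for fibroblasts, 4 of 4 for endothelium, 5 of 6 for leukocytes and 4 of 5 for plasma cells were below 1 CPM, and so were 5 of 7 gastric secretory markers. The summed plasma cell list ran between 63.5 and 68.1 CPM in hairpin 1 libraries, 37.4 and 37.9 in hairpin 2, 69.9 and 82.6 in hairpin 3, and 89.5 and 98.9 in control libraries. As 4 of its 5 genes were below 1 CPM, this sum describes mainly the remaining gene and not plasma cells as such. In the leukocyte and fibroblast lists too, all measured genes but 1 were below 1 CPM, so their sums do not describe those cells as such. The epithelial, leukocyte and plasma cell sums were lowest with hairpin 2. The fibroblast sum was not, at 7.31 to 8.78 CPM with hairpin 2 against 5.08 to 6.27 with hairpin 1. It ran between 3.73 and 5.75 CPM with hairpin 3 and between 6.91 and 8.60 in control libraries. The endothelial and gastric secretory sums of hairpin 2 overlapped with those of hairpin 1. The part of these marker levels in the results was not tested. In bulk libraries fewer cells of a type and less RNA per cell cannot be told apart.

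Levels were compared between genes as TPM, the authors' length-scaled unit. CALR was the most abundant of the 10 in every line, with a mean of 1182 ± 1.27 TPM with hairpin 1, 1745 ± 47.5 with hairpin 2, 1105 ± 10.7 with hairpin 3 and 807 ± 13.7 TPM with the control hairpin (SD, n = 3 each). HSPA5 followed in the hairpin 2 line at 559 ± 11.7 TPM and in the control line at 434 ± 33.5 TPM. HSP90B1 took that place with hairpin 1, at 420.2 ± 7.38 TPM against 388 ± 2.86 TPM of HSPA5. With hairpin 3 these 2 genes overlapped over the libraries, at 398 ± 35.3 and 376 ± 28.9 TPM. PDIA4 came next in all 4 lines, between 152 and 208 TPM on average. DNAJB11 and XBP1 overlapped in the control line, at 119.6 and 114 TPM, whereas XBP1 stood below SDF2L1 with hairpin 1 and hairpin 3 (62.0 and 61.1 TPM). DNAJC3 passed HERPUD1 with hairpin 1, at 35.5 TPM against 23.4 TPM, and overlapped with it with hairpin 3, while in the control line it stood below it at 14.6 TPM against 52.0 TPM. DNAJB9 was the lowest in every line, at 12.4, 32.5 and 15.03 TPM with hairpins 1, 2 and 3 and 7.73 TPM with the control hairpin. Other neighbours in the order did not overlap over the libraries. Together the 10 genes took between 0.252% and 0.253% of all TPM in the hairpin 1 line, between 0.342% and 0.355% in the hairpin 2 line, between 0.232% and 0.251% in the hairpin 3 line and between 0.198% and 0.218% in the control line.

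The 10 genes did not move together when SKA2 was knocked down. Calls were made with edgeR's quasi-likelihood test where the Benjamini-Hochberg adjusted p over all tested genes was under 0.05. With hairpin 1, 3 members rose and 4 fell, beside 31.5% and 31.5% of all tested genes (63.1% in either direction). With hairpin 2, 4 rose and 3 fell, beside 36.6% and 37.8% (74.4% in either direction). With hairpin 3, 4 rose and 3 fell, beside 23.6% and 24% (47.6% in either direction). A call by itself is thus not particular to these genes. The median change of the 10 genes was -0.10, -0.04 and 0.08 on the log2 scale with hairpins 1, 2 and 3, beside 0.0059, -0.017 and 0.0086 over all tested genes. These medians depended on how transcript length was treated. Under the length offset they were 0.18, 0.35 and 0.23, beside 0.0047, -0.00046 and 0.023 over all tested genes. Under the length covariate they were 0.16, 0.29 and 0.26, beside 0.0092, -0.024 and 0.011. The split of calls depended on it too. In both length fits DNAJC3, SDF2L1, HSP90B1 and CALR were called higher with each of the 3 hairpins. HSPA5, HERPUD1 and XBP1 stayed called lower with hairpins 1 and 3. Of all genes, 30.8%, 37.3% and 29.4% were called higher with hairpins 1, 2 and 3 under the offset. Under the covariate these shares were 19.6%, 27.5% and 29.6%. In the fit without a length term, members called with a change of at least 2-fold numbered 2 with each hairpin, beside 11.8%, 27.6% and 7.13% of all tested genes. In that fit DNAJB9, DNAJC3 and HSP90B1 were called higher with each of the 3 hairpins, which was true of 13.9% of all tested genes. HERPUD1 and XBP1 were called lower with each, which was true of 15% of all tested genes. SDF2L1 and PDIA4 were called with no hairpin in that fit. On TPM, a scale that raised the median of all genes by 0.289, 0.332 and 0.124, the split became 5 higher and 2 lower with hairpin 1, 7 higher and 1 lower with hairpin 2, and 5 higher and 3 lower with hairpin 3. Among all genes on TPM, 50.2% were called higher and 13.5% lower with hairpin 1, 53% and 20.9% with hairpin 2, and 25% and 16.1% with hairpin 3. In a fit of the control and hairpin 3 libraries alone with the replicate number as a block, 5 members rose and 3 fell with hairpin 3, beside 35.9% and 35.5% of the genes tested there.

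**Figure D2:**
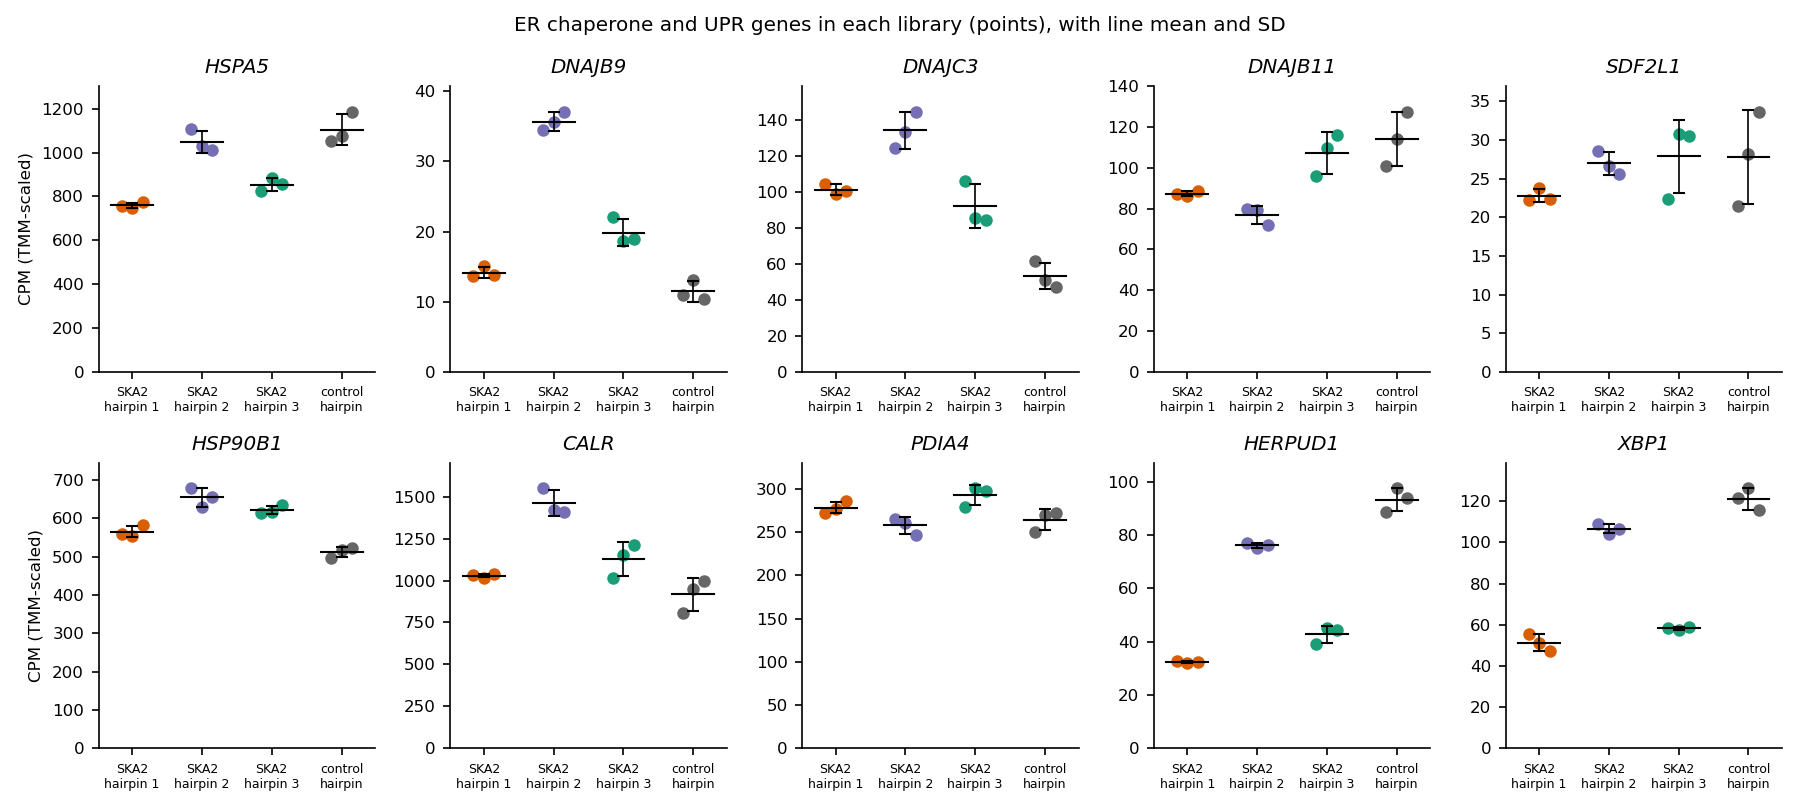
CPM of each of the 10 genes (vertical axes, 1 per gene, from 0) in the 3 libraries of each line (points), with the mean (long bar) and SD (error bar). HERPUD1 and XBP1 sit below the control in all 9 knockdown libraries, least with hairpin 2, and DNAJC3 sits above the control in all 9 knockdown libraries.

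HERPUD1 and XBP1 showed the largest falls of the 10 genes with hairpins 1 and 3 and in the mean of the hairpins, while with hairpin 2 DNAJB11 fell most. HERPUD1 (chr16:56932048-56944863, plus strand, GRCh38, GENCODE v29) measured 32.7, 31.9 and 32.4 CPM in the hairpin 1 line, 77.0, 75.3 and 76.2 CPM in the hairpin 2 line, 39.2, 45.1 and 44.3 CPM in the hairpin 3 line, and 88.7, 97.5 and 93.9 CPM in the control line. Every knockdown library was below every control library, with hairpin 2 closest to the control. The log2 fold change was -1.53 ± 0.07 with hairpin 1 (SE, edgeR adjusted p = 2.01e-08), -0.29 ± 0.07 with hairpin 2 (adjusted p = 0.00186) and -1.12 ± 0.07 with hairpin 3 (adjusted p = 2.61e-07). XBP1 (chr22:28794555-28800597, minus strand) measured 55.5, 50.9 and 47.2 CPM in the hairpin 1 line, 109, 104 and 107 CPM in the hairpin 2 line, 58.4, 57.6 and 58.9 CPM in the hairpin 3 line, and 122, 126 and 116 CPM in the control line. Its groups did not overlap with the control either, and its order of lines was that of HERPUD1. The log2 fold change was -1.24 ± 0.07 with hairpin 1 (adjusted p = 1.16e-07), -0.18 ± 0.07 with hairpin 2 (adjusted p = 0.0276) and -1.05 ± 0.07 with hairpin 3 (adjusted p = 4.94e-07). Counts per gene do not separate the spliced XBP1 mRNA, which encodes the active factor, from the unspliced one. The falls with hairpins 1 and 3 held in every alternative run. With hairpin 2 both values turned positive on TPM, at 0.14 for HERPUD1 and 0.25 for XBP1, neither of them called. With the length offset XBP1 was called higher with hairpin 2 (log2 0.23, edgeR adjusted p = 0.0219), and with the length covariate HERPUD1 was at -0.09 and not called (adjusted p = 0.372). The hairpin 2 call of XBP1 was also lost on FPKM (log2 -0.10), without control replicate 2, without hairpin 2 replicate 2 and without hairpin 2 replicate 3 (log2 -0.16, -0.17 and -0.19).

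HSPA5, the gene of BiP, fell with 2 of the 3 hairpins. HSPA5 (chr9:125234853-125241330, minus strand) measured 756, 748 and 772 CPM in the hairpin 1 line, 1106, 1029 and 1012 CPM in the hairpin 2 line, 822, 884 and 855 CPM in the hairpin 3 line, and 1051, 1076 and 1185 CPM in the control line. All libraries of hairpins 1 and 3 were below all control libraries, while those of hairpin 2 overlapped with them. The log2 fold change was -0.54 ± 0.06 with hairpin 1 (edgeR adjusted p = 5.17e-05), -0.07 ± 0.06 with hairpin 2 (adjusted p = 0.318) and -0.37 ± 0.06 with hairpin 3 (adjusted p = 0.000785). The call with hairpin 3 held in every alternative run. On TPM the value with hairpin 1 was -0.16 and was not called, and the value with hairpin 2 was 0.37 and was called higher. With the length offset the value with hairpin 2 was -0.26 and was called lower (edgeR adjusted p = 0.0108).

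The J-domain partners of BiP went in different directions. DNAJB9 (chr7:108569568-108574850, plus strand) measured 13.6, 15.1 and 13.8 CPM in the hairpin 1 line, 34.4, 35.6 and 37.0 CPM in the hairpin 2 line, 22.1, 18.6 and 18.9 CPM in the hairpin 3 line, and 10.9, 13.1 and 10.3 CPM in the control line. It was above the control in all 9 knockdown libraries, most with hairpin 2. Its log2 fold change was 0.31 ± 0.11 with hairpin 1 (edgeR adjusted p = 0.0257), 1.64 ± 0.10 with hairpin 2 (adjusted p = 9.66e-08) and 0.79 ± 0.10 with hairpin 3 (adjusted p = 0.000109). DNAJC3 (chr13:95677139-95794989, plus strand) measured 105, 98.8 and 100.4 CPM in the hairpin 1 line, 124, 134 and 144 CPM in the hairpin 2 line, 106, 85.3 and 84.6 CPM in the hairpin 3 line, and 61.4, 50.8 and 47.3 CPM in the control line. It too was above the control in every knockdown library, and the first hairpin 3 library and the first control library were each the highest of their lines. Its log2 fold change was 0.93 ± 0.11 with hairpin 1 (adjusted p = 5.92e-05), 1.34 ± 0.11 with hairpin 2 (adjusted p = 1.05e-06) and 0.79 ± 0.11 with hairpin 3 (adjusted p = 0.0002). The rises of DNAJC3 with all 3 hairpins, and of DNAJB9 with hairpins 2 and 3, held in every alternative run. The call of DNAJB9 with hairpin 1 was lost without control replicate 1, without control replicate 3 and without hairpin 1 replicate 2 (log2 0.27, 0.24 and 0.24). It was also lost with the length covariate (log2 0.12, edgeR adjusted p = 0.539) and with only the lines compared (log2 0.29, adjusted p = 0.0635), and DNAJB9 rested on 162 to 562 counts per library.

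DNAJB11 (chr3:186567403-186585800, plus strand) went the other way. It measured 87.3, 86.4 and 88.5 CPM in the hairpin 1 line, 79.9, 79.4 and 72.0 CPM in the hairpin 2 line, 96.2, 109.6 and 116 CPM in the hairpin 3 line, and 101, 114 and 127 CPM in the control line. Hairpins 1 and 2 were below every control library, and hairpin 3 overlapped with the control. The log2 fold change was -0.39 ± 0.09 with hairpin 1 (edgeR adjusted p = 0.00427), -0.57 ± 0.09 with hairpin 2 (adjusted p = 0.000194) and -0.09 ± 0.09 with hairpin 3 (adjusted p = 0.457). The calls depended on how transcript length was treated. With the length offset, the values were -0.036 with hairpin 1 and -0.084 with hairpin 2, and with the length covariate -0.039 and -0.13, none of them called. Per length the level was 119.6 ± 0.563 TPM with hairpin 1, 110.03 ± 3.52 TPM with hairpin 2 and 119.6 ± 2.68 TPM with the control hairpin (SD, n = 3 each). On TPM the fall with hairpin 2 was still called (log2 -0.12, limma adjusted p = 0.0276), and the value with hairpin 1 was not. SDF2L1 (chr22:21642261-21644298, plus strand), its partner, has the shortest transcript of the 10, with an effective length of 547 bases against 1362 for DNAJB11 and 5315 for DNAJC3. SDF2L1 measured 22.3 to 23.8 CPM in the hairpin 1 line, 25.6 to 28.6 in the hairpin 2 line, 22.4 to 30.7 in the hairpin 3 line and 21.5 to 33.6 CPM in the control line, so all 3 hairpins overlapped with the control. Its log2 fold changes of -0.28, -0.04 and 0.0064 with hairpins 1, 2 and 3 were not called (edgeR adjusted p = 0.13, 0.814 and 0.977). The lowest values with hairpin 3 and with the control hairpin were those of the first libraries, the ones that stood apart. Without both, SDF2L1 fell by 0.44 with hairpin 1 and by 0.20 with hairpin 2, both called, whereas it was called higher with all 3 hairpins under the length offset (log2 0.28, 0.65 and 0.26) and under the length covariate (0.37, 0.78 and 0.30).

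The abundant genes HSP90B1, CALR and PDIA4 rose or were not called. HSP90B1 (chr12:103930107-103953645, plus strand) measured 559, 554 and 581 CPM in the hairpin 1 line, 677, 629.9 and 655 CPM in the hairpin 2 line, 613, 616 and 634 CPM in the hairpin 3 line, and 497, 516 and 523 CPM in the control line. All 9 knockdown libraries were above all control libraries. The log2 fold change was 0.14 ± 0.05 with hairpin 1 (edgeR adjusted p = 0.0396), 0.35 ± 0.05 with hairpin 2 (adjusted p = 0.000108) and 0.28 ± 0.05 with hairpin 3 (adjusted p = 0.00163). The call with hairpin 1 was lost when any 1 of its 6 libraries was left out (log2 0.12 to 0.16), and also with RLE size factors, with no filter and with only the lines compared (log2 0.13, 0.12 and 0.13). CALR (chr19:12938578-12944489, plus strand) measured 1035, 1018 and 1038 CPM in the hairpin 1 line, 1549, 1423 and 1408 CPM in the hairpin 2 line, 1014, 1153 and 1211 CPM in the hairpin 3 line, and 807, 951 and 997 CPM in the control line. All knockdown libraries were above all control libraries, with the first control library lowest. The log2 fold change was 0.17 ± 0.09 with hairpin 1 (adjusted p = 0.121), 0.67 ± 0.09 with hairpin 2 (adjusted p = 3.44e-05) and 0.29 ± 0.09 with hairpin 3 (adjusted p = 0.0177). The call with hairpin 3 was lost without hairpin 3 replicate 2 and without hairpin 3 replicate 3 (log2 0.28 and 0.24), and with only the lines compared (0.29, edgeR adjusted p = 0.105). With hairpin 1 CALR was called higher in 4 alternatives, at 0.45 with the length offset (edgeR adjusted p = 1.87e-06), 0.50 with the length covariate (adjusted p = 2.42e-09), 0.55 on TPM and 0.26 on FPKM. PDIA4 (chr7:149003062-149028641, minus strand) stayed within a narrow range, with 272 to 285 CPM in the hairpin 1 line, 247 to 265 in the hairpin 2 line, 279 to 300.3 in the hairpin 3 line and 250.01 to 272 CPM in the control line. Its log2 fold changes of 0.08, -0.04 and 0.15 were not called (adjusted p = 0.288, 0.609 and 0.0618), and with hairpin 3 its libraries lay just above all control libraries. PDIA4 was called higher with hairpins 1 and 3 with the length offset (log2 0.15 and 0.20), with the length covariate (0.22 and 0.21), on TPM (0.45 and 0.30) and on FPKM (0.16 and 0.21), and with hairpin 2 on TPM (0.40). With hairpin 3 it was also called higher by DESeq2 (log2 0.14, adjusted p = 0.0466) and with the replicate number as a block in the fit of control and hairpin 3 libraries (log2 0.15, edgeR adjusted p = 0.000672).

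**Figure D3:**
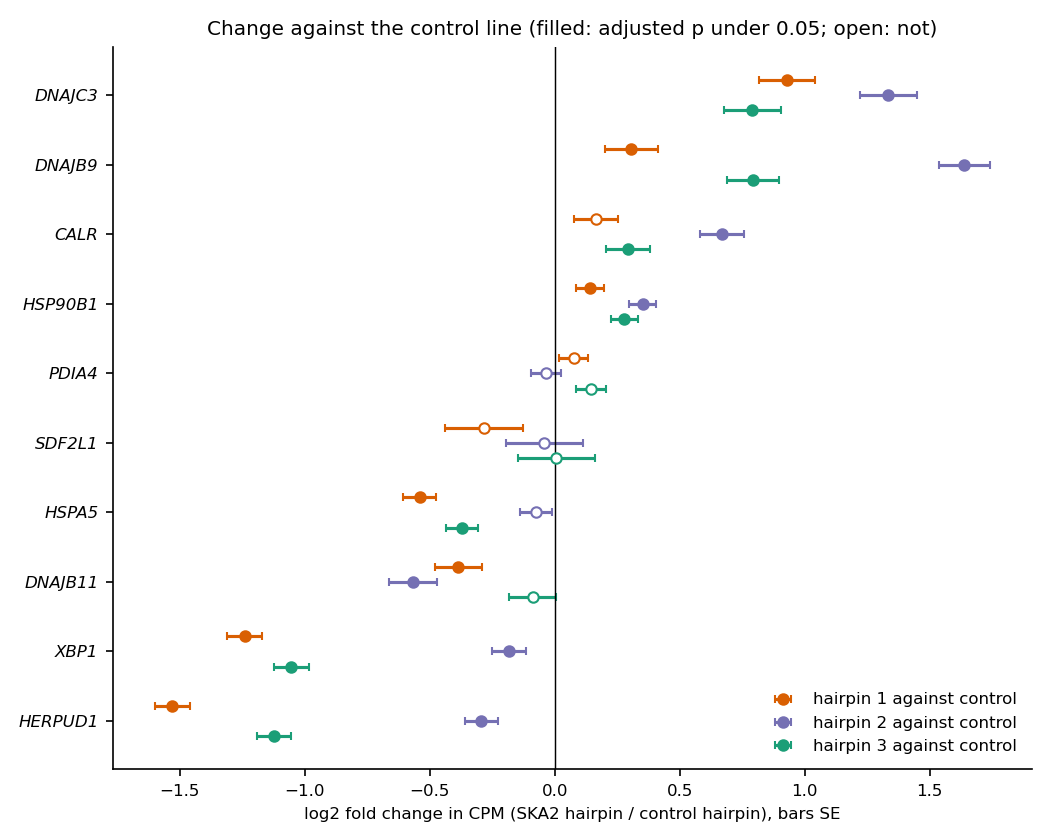
Log2 fold change in CPM of each SKA2 hairpin line over the control line for the 10 genes (points), with SE (bars); filled points have an adjusted p under 0.05. DNAJC3 and DNAJB9 lie highest with each hairpin, between 0.31 and 1.64. XBP1 and HERPUD1 lie lowest with hairpins 1 and 3, between -1.05 and -1.53, and DNAJB11 lies lowest with hairpin 2, at -0.57.

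Averaged over the 3 hairpins, 4 members were called higher and 4 lower, beside 33.7% and 35.8% of all tested genes (69.5% in either direction). Of the 10 genes, 4 were above the control in all 9 knockdown libraries (DNAJB9, DNAJC3, HSP90B1 and CALR) and 2 were below it (HERPUD1 and XBP1), beside 12.5% and 14.9% of all tested genes. The log2 changes ran from -0.98 ± 0.05 for HERPUD1 (edgeR adjusted p = 4.38e-08) and -0.83 ± 0.05 for XBP1 (adjusted p = 2.29e-07) to 0.91 ± 0.09 for DNAJB9 (adjusted p = 5.7e-06) and 1.02 ± 0.10 for DNAJC3 (adjusted p = 4.91e-06). These errors leave out the spread between hairpins. With all 9 knockdown libraries as 1 group, which includes that spread, 2 members instead of 4 were called lower. The share of all genes called lower in that fit is not given here, so this count cannot be set against the 35.8% above. HSPA5, DNAJB11 and CALR lost their calls there, with adjusted p = 0.0721, 0.0754 and 0.0594.

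The hairpins lowered SKA2 to a like level but differed in these genes. Hairpin 2 stood above hairpin 1 in 7 of the 10 genes and below it in 0, beside 28.2% and 29.4% of all tested genes (57.6% in either direction). The differences included 1.33 on the log2 scale for DNAJB9 (edgeR adjusted p = 6.57e-07), 1.24 for HERPUD1 (adjusted p = 6.87e-08), 1.06 for XBP1 (adjusted p = 2.11e-07) and 0.47 for HSPA5 (adjusted p = 7.68e-05). Hairpin 3 stood above hairpin 2 in 2 genes, DNAJB11 and PDIA4, and below it in 6, beside 33.4% and 31.9% of all tested genes (65.3% in either direction). Hairpin 3 and hairpin 1 were closer, with 2 members called higher and 0 lower, beside 4.75% and 4.7% of all tested genes (9.45% in either direction). These were DNAJB9 at 0.49 (adjusted p = 0.0186) and HERPUD1 at 0.41 (adjusted p = 0.00661). That count depended on the first hairpin 3 library, and was 5 without it, when 19.5% of all tested genes were called higher and 21% lower.

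Across the 12 libraries, HERPUD1 and XBP1 were the pair most alike among the 45 pairs of members (Pearson r of log2 CPM 0.985), and both followed HSPA5 (0.977 and 0.949). A second set of high values joined DNAJB9, CALR and HSP90B1, with r between 0.893 and 0.904. DNAJC3 and DNAJB11 were the most opposed, at -0.880. These correlations leave the length trend in, and the effective lengths of DNAJC3 and DNAJB11 are 5315 and 1362 bases. Within the control line as well, DNAJC3 ran 61.4, 50.8 and 47.3 CPM where DNAJB11 ran 101, 114 and 127 CPM. The part of transcript length in their opposition was not tested. The median over the 45 pairs was 0.137, with 28 above 0. Of 9751 other genes with at least 10 CPM on average, those most like HSPA5 were SNX15, a sorting nexin (r = 0.985), ARFGAP2, a GTPase activator of ARF1 (0.983), VPS37B, an ESCRT-I subunit (0.981), EPS8L2, an actin regulator (0.979), and HERPUD1. The libraries of a line share their hairpin, and the points fall into 4 lines, so these values describe the order of lines more than 12 separate observations.

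Genes next to these in the secretory pathway included calls in both directions. Of 31 other ER folding factors, 5 rose and 13 fell with hairpin 1, beside 31.5% and 31.5% of all tested genes. For hairpin 2, 9 rose and 11 fell, beside 36.6% and 37.8% of all tested genes. For hairpin 3, 2 rose and 7 fell, beside 23.6% and 24%. The medians of these 31 genes were -0.10, -0.09 and -0.04 on the log2 scale. With the replicate number as a block in the fit of control and hairpin 3 libraries, 7 rose and 13 fell with hairpin 3. The shares of all genes called in that fit are given above with the 10 genes. HYOU1, a large chaperone that works with BiP, fell with hairpins 1 and 3 (log2 -0.43 and -0.39) and was at -0.09 with hairpin 2, not called, an order of lines like that of HSPA5. On TPM HYOU1 was called higher with hairpin 2 (0.35) and was not called with hairpins 1 and 3 (-0.05 and -0.23), and with the length offset it was called lower with hairpin 2 (-0.40). ERP29, a folding factor of secretory proteins, fell with all 3 hairpins (log2 -0.77, -0.91 and -0.39), and so did TXNDC12, a thioredoxin-like oxidoreductase (log2 -0.57, -0.61 and -0.23). TXNDC12 was called with none of the 3 hairpins under the length offset (log2 -0.17, -0.06 and -0.01, adjusted p = 0.0563, 0.454 and 0.907). ERP44, which retains unfinished proteins through thiols, rose with hairpins 2 and 3 (log2 0.64 and 0.36), the hairpin 3 call being lost with the length offset (0.23, adjusted p = 0.0548). Leaving out 1 library ended the hairpin 3 calls of ERP29 (without control replicate 2 or 3 or hairpin 3 replicate 1 or 2, log2 -0.28 to -0.40) and of TXNDC12 (without control replicate 2 or 3 or hairpin 3 replicate 1, log2 -0.18 to -0.22). Averaged over the hairpins, 5 of these 31 genes rose and 10 fell, beside 33.7% and 35.8% of all tested genes. On TPM the split turned to 17 higher and 6 lower, beside 52% higher and 18% lower among all genes on that scale.

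Of 24 genes of ER-associated degradation, 23 were tested. In the mean of the hairpins 8 rose and 11 fell, beside 33.7% and 35.8% of all tested genes. On TPM 13 were higher and 1 lower, the scale on which 52% and 18% of all genes were called. VCP, the ATPase that pulls substrates out of the membrane, rose with all 3 hairpins (log2 0.21, 0.19 and 0.28), although without hairpin 2 replicate 1 the hairpin 2 call was lost at 0.16. VCP was not called with hairpins 1 and 2 under the length offset (log2 0.08 and 0.04, adjusted p = 0.334 and 0.602). SELENOS, which recruits VCP to the membrane, fell with all 3 (log2 -0.77, -0.40 and -0.38), with the sign turned for hairpin 2 on TPM (0.028, not called), with the length offset (0.20, called higher at adjusted p = 0.0031) and with the length covariate (0.13, not called). The lectin ERLEC1 rose most with hairpin 2 (log2 0.21, 0.81 and 0.23), and leaving out control replicate 2 or 3, any library of hairpin 1, or hairpin 3 replicate 1 or 3 ended its call with hairpin 1 or 3 (log2 0.15 to 0.24). With the length covariate ERLEC1 was at -0.0034 with hairpin 1, not called. UBE2G2, a ubiquitin-conjugating enzyme, fell with hairpin 2 (log2 -0.72) and was at 0.03 and -0.05 with hairpins 1 and 3, not called.

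Of 23 translocon and signal peptide genes, 10 rose and 7 fell in the mean, beside 33.7% and 35.8% of all tested genes. On TPM these counts were 16 and 4, beside the same 52% and 18% of all genes there. TRAM1, a translocating chain factor, rose by 0.94, 1.41 and 0.78 on the log2 scale with hairpins 1, 2 and 3. SRP54, of the signal recognition particle, rose by 0.22, 0.68 and 0.25, the hairpin 1 call being lost with the length covariate (0.08), and SPCS2, of the signal peptidase, by 0.36, 0.50 and 0.53. SEC11C, its catalytic subunit, fell by 0.60 and by 0.66 with hairpins 1 and 2, values that were not called with the length offset (-0.06 and 0.019). Of 19 ER export and retrieval genes, 10 rose and 2 fell in the mean, beside 33.7% and 35.8% of all tested genes. Their medians were 0.18, 0.40 and 0.12 for hairpins 1, 2 and 3. The COPII coat genes SEC24C, SEC24D and SEC31A were highest with hairpin 2 (log2 1.22, 1.48 and 1.71), the line in which DNAJB9 and CALR were also highest. TMED10, a cargo receptor, rose with all 3 hairpins (log2 0.35, 0.60 and 0.31).

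The sensors of the response did not share a direction. Of 11 genes of the sensors and their processing, 9 were tested. In the mean 4 rose and 2 fell, beside 33.7% and 35.8% of all tested genes. EIF2AK3, the gene of PERK, rose by 1.86 with hairpin 2 and by 0.45 with hairpin 1, and this last call was lost without control replicate 2 (0.40), without control replicate 3 (0.40) or without hairpin 1 replicate 3 (0.35), and with the length offset (0.23) or covariate (-0.015). ATF6 fell by 1.16 with hairpin 2 and was at -0.10 and -0.05 with hairpins 1 and 3, not called. ATF6 was called lower with hairpins 1 and 3 too under the length offset (log2 -0.40, adjusted p = 3.85e-05, and -0.18, adjusted p = 0.0098) and the length covariate (-0.41 and -0.19), and on TPM its value with hairpin 2 was -0.26 and not called (limma adjusted p = 0.31). ERN1, the gene of IRE1, fell by 0.62 with hairpin 1 and by 1.11 with hairpin 3 and was at -0.29 with hairpin 2, not called. ERN1 was called lower with hairpin 2 with the length offset (log2 -1.03, edgeR adjusted p = 1.77e-08) and the length covariate (-1.12), and its call with hairpin 1 was lost on TPM (-0.19). MBTPS2, the protease that cuts ATF6 within the membrane, rose by 0.74, 1.08 and 0.52 with hairpins 1, 2 and 3, the hairpin 3 call being lost without control replicate 2, control replicate 3 or hairpin 3 replicate 1 (log2 0.31 to 0.49). With the length covariate the calls of MBTPS2 with hairpins 1 and 2 were lost (log2 0.09 and 0.24).

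The genes of the PERK-ATF4 arm, targets of ATF4 and the factors around it, were lower with nearly no exception. Of its 34 listed genes 31 were tested, and 30, 30 and 30 of these fell with hairpins 1, 2 and 3, with 0 called higher. Among all tested genes 31.5%, 37.8% and 24% were called lower and 31.5%, 36.6% and 23.6% higher. Their medians were -1.83, -1.84 and -1.59 on the log2 scale, against -0.10, -0.04 and 0.08 for the 10 ER genes. The medians of the 10 ER genes were 0.18, 0.35 and 0.23 under the length offset and 0.16, 0.29 and 0.26 under the length covariate. The medians of the arm in those fits are not given here. Of the arm's genes, 25, 24 and 26 fell at least 2-fold. Over all tested genes 11.8%, 27.6% and 7.13% were called with a change of at least 2-fold in either direction. This arm was listed with earlier results of these data known, so its direction is a description and not independent evidence. ATF4 itself was lower by log2 -1.83, -1.09 and -1.32. ASNS, asparagine synthetase, changed by -3.16, -3.26 and -2.80, SESN2, a sestrin, by -3.63, -2.75 and -3.10, SLC7A5, an amino acid transporter, by -1.81, -2.20 and -2.03, and TRIB3, a pseudokinase, by -4.35, -3.68 and -4.71. DDIT3, which encodes CHOP, changed by -2.14, -1.02 and -1.99, smallest with hairpin 2 as in HERPUD1 and XBP1. Over the alternatives run, the number of genes of this arm called lower stayed between 27 and 31 for hairpin 1, 26 and 31 for hairpin 2 and 28 and 31 for hairpin 3.

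**Figure D4:**
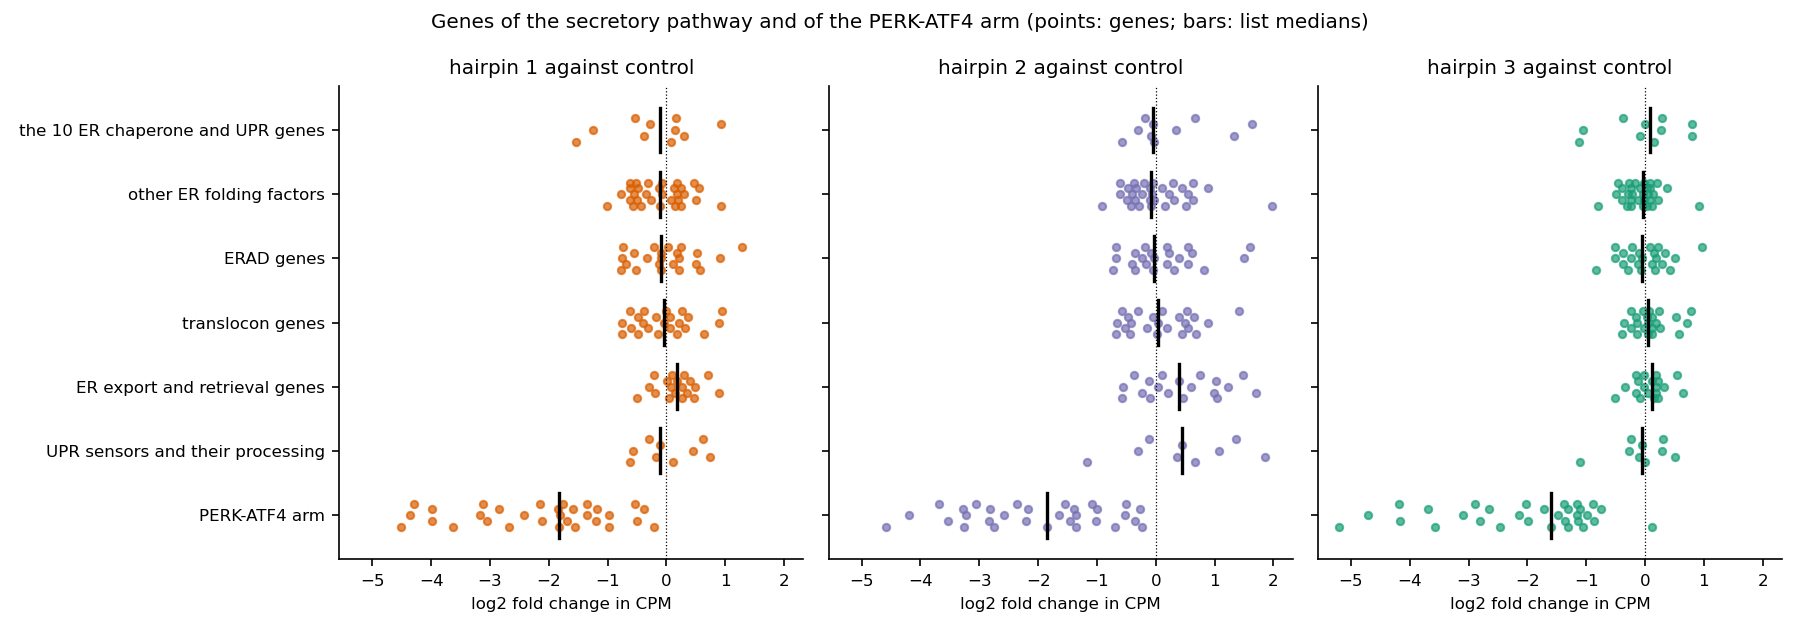
Log2 fold change in CPM over the control line (horizontal axis, shared scale) of each tested gene (points) in the 10 ER genes and 6 related lists, 1 panel per hairpin, with list medians (bars). The PERK-ATF4 arm lies to the left with all 3 hairpins, at medians of -1.83, -1.84 and -1.59, while the other lists straddle 0.

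Several members share exonic bases with a gene on the opposite strand, and no step of the protocol in the labels records which strand was read. DNAJB9 shares 183 bases with THAP5 and 99 with PNPLA8, DNAJB11 shares 381 with TBCCD1, and HSP90B1 shares 121 with C12orf73 (GENCODE v29). Also on the opposite strand, DNAJB11 shares 496 with AC068631.1, HSP90B1 105 with TTC41P and CALR 270 with AC092069.1. On the same strand, DNAJB11 shares 451 with AC068631.2, a protein-coding gene, and HSP90B1 131 with MIR3652. None of these further partners was found by symbol among the genes measured. Reads from these bases cannot be told apart between the partners.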

How the data were processed

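The 12 libraries were mapped to 4 lines by their titles. Per the labels' protocols, Trizol-extracted RNA was enriched for polyadenylated molecules, fragmented, reverse-transcribed from random hexamers and sequenced on BGISEQ-500. The submitters' processing notes name GRCh38.p13, RSEM, Bowtie2, HISAT and DESeq2, with roles, versions and filters not given in the sources used. Per gene and library, the authors deposited expected counts, FPKM and TPM, per the file headers. Of the deposited expected counts 84.0% to 86.0% were whole. A further 15 columns of averages were not used.

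Expected counts were rounded and tested with edgeR 4.0.16 (R 4.3.3) by its quasi-likelihood test, two-sided, in 1 fit of the 4 lines with TMM scaling and the tool's expression filter, with 8 residual degrees of freedom. Calls were at a Benjamini-Hochberg adjusted p under 0.05 over 12868 genes. SE is the absolute log2 change divided by the square root of F, and SD is over 3 libraries. The scripts were tested on simulated data. Correlations used log2 CPM with a prior count of 2.

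Alternatives were RLE size factors, DESeq2 1.42.0, no filter, at least 10 counts in every library, limma 3.58.1 on log2(TPM + 1) and log2(FPKM + 1), a length offset, a length covariate, a replicate block, only the lines compared, the 9 knockdown libraries as 1 group, and leaving out each library. Leaving out both libraries that stand apart, and the block in a fit of only the control and hairpin 3 libraries, were added after seeing the data. Deviations of same-numbered libraries from their line means correlated over 0.1 in all 3 pairs of control and hairpin 3 (r = 0.728, 0.170 and 0.600), and in no pair of any other lines. The labels give no pairing, and correlations of libraries with different numbers are not given for these 2 lines. The first library of each stood apart and had the highest length slope of its line. Whether the numbers mark a true pairing was not tested. The members and lists were chosen with earlier results of these data known. Named genes were the members, SKA2, the 4 genes with the smallest adjusted p in the mean of the hairpins in each list, and the 5 genes most like HSPA5. ATF4 and DDIT3 were named after their values were seen. Promoters came from RefSeq (GRCh38.p14) and positions from GENCODE v29 (GRCh38).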

Additional observations from a re-analysis of the deposited data

Results flagged for a closer look

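The change against the shared control differed between hairpins, by the test of the hairpins against each other, in the following members (edgeR adjusted p under 0.05). Hairpin 2 was above hairpin 1 for HSPA5 (log2 0.47), DNAJB9 (1.33), DNAJC3 (0.41), HSP90B1 (0.21), CALR (0.50), HERPUD1 (1.24) and XBP1 (1.06). Hairpin 3 was above hairpin 1 for DNAJB9 (0.49) and HERPUD1 (0.41). Hairpin 3 was below hairpin 2 for HSPA5 (-0.30), DNAJB9 (-0.85), DNAJC3 (-0.54), CALR (-0.37), HERPUD1 (-0.83) and XBP1 (-0.87), and above it for DNAJB11 (0.48) and PDIA4 (0.18). The call of PDIA4 was lost without hairpin 2 replicate 2 (0.18), hairpin 2 replicate 3 (0.15), hairpin 3 replicate 2 (0.16) or hairpin 3 replicate 3 (0.17). The call of DNAJB9 between hairpins 3 and 1 was lost without hairpin 1 replicate 1 (0.46) or replicate 3 (0.47). Between hairpins 3 and 2, HSPA5 lost its call with the length offset (-0.18) and PDIA4 with the length covariate (0.07) and on TPM (-0.098). Between hairpins 2 and 1, DNAJC3 lost its call on TPM (0.45). Between hairpins 3 and 1, HERPUD1 and DNAJB9 lost theirs on TPM (0.18 and 0.25) and with only the lines compared (0.41 and 0.49). Each hairpin is 1 line, so hairpin and line cannot be told apart.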

How the results depend on the processing

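With TPM in place of counts, members called higher became 5 (hairpin 1), 7 (hairpin 2), 0 (hairpin 3 against hairpin 1) and 1 (hairpin 3 against hairpin 2), and members called lower became 2 (hairpin 1), 1 (hairpin 2), 2 (mean) and 1 (hairpin 2 against hairpin 1). Members called higher with hairpin 1 numbered 5 on FPKM, 6 with the length offset, 5 with the length covariate and 1 with only the lines compared. The shares of all genes called higher there were 34.6%, 30.8%, 19.6% and 30.1%, in the same order. With hairpins 2 and 3 the length fits also moved the calls of members, as given above by gene. This share moved with the setting, so a count given below without it cannot be compared between settings. The length covariate left 1 lower with hairpin 2, beside 30.8% of all genes. It gave 4 higher for hairpin 3 against hairpin 1 and 1 higher for hairpin 3 against hairpin 2. With only the lines compared, 2 were lower for hairpin 2 against hairpin 1 and 0 higher for hairpin 3 against hairpin 1. DESeq2 called 5 higher for hairpin 3 against hairpin 1. The 9 knockdown libraries as 1 group gave 2 lower in the mean. Without both libraries that stand apart, 9 were higher and 1 lower for hairpin 3 against hairpin 1, beside 28.2% and 28.9% of all genes tested there, and 2 were lower for hairpin 2 against hairpin 1. Leaving out 1 library gave 1 to 2 members higher with hairpin 1, 1 to 5 for hairpin 3 against hairpin 1 and 1 to 2 for hairpin 3 against hairpin 2; the library that raised the count to 5 was the first of hairpin 3.

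Signs turned as follows on the log2 scale. On TPM with hairpin 2 they were HSPA5 0.37, SDF2L1 0.41, PDIA4 0.40, HERPUD1 0.14, XBP1 0.25, HYOU1 0.35 and SELENOS 0.028, in the mean SDF2L1 0.23, HYOU1 0.022, UBE2G2 0.052 and ATF6 0.16, and between hairpins 3 and 2 SDF2L1 -0.25 and PDIA4 -0.098. With the length offset they were SDF2L1 0.28 and SEC24C -0.0697 (hairpin 1), SDF2L1 0.65, XBP1 0.23 (called higher), SELENOS 0.20 (called higher) and SEC11C 0.019 (hairpin 2), SDF2L1 0.40 and SEC11C 0.020 (mean), and SDF2L1 -0.39 (hairpin 3 against hairpin 2). With the length covariate they were SDF2L1 0.37, ERLEC1 -0.0034, SEC31A -0.19 and EIF2AK3 -0.015 (hairpin 1), SDF2L1 0.78 and SELENOS 0.13 (hairpin 2), SDF2L1 0.49 (mean) and SDF2L1 -0.48 (hairpin 3 against hairpin 2). The cause was not tested. On TPM the median of all genes moved by 0.289, 0.332, 0.124 and 0.254 for hairpins 1, 2, 3 and their mean.

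Same-numbered libraries correlated over 0.1 only between control and hairpin 3, and whether this marks a true pairing was not tested. In the block fit of these 2 lines PDIA4, SEC31A and EIF2AK3 gained calls with hairpin 3 (log2 0.15, 0.18 and 0.28), and no other call of a named gene changed. Between other lines 0 of 15 correlations were over 0.1, and 0 of 12 libraries correlated best with its own number in all other lines. With the replicate block over all 12 libraries HSP90B1 lost its call with hairpin 1 (log2 0.14, adjusted p = 0.0526) and SEC31A gained one there (0.27, adjusted p = 0.0289), and no other call of a named gene against the control changed. With only the lines compared, the hairpin 3 calls of CALR, ERP29, TXNDC12, ERLEC1, SELENOS, SRP54, SEC24C, SEC24D and MBTPS2 were lost.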
